A study of Mus musculus with 6 samples.

Results

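The neuregulin and ErbB receptor axis is described here by the genes of the table whose symbol is Nrg1, Erbb2, Erbb3, Erbb4, Egfr or Hbegf. Of the 6 listed genes, 5 had a row among the 14495 genes of the table. No row carried the symbol Nrg1, so its transcript was not analysed here. All 5 passed the filter on low counts and were among the 14301 genes tested. Neuregulins and heparin-binding EGF-like growth factor (HB-EGF) are membrane-bound ligands of the EGF family that bind the ErbB receptor tyrosine kinases. ErbB4 and ErbB3 bind neuregulins, EGFR and ErbB4 bind HB-EGF, and ErbB2 has no known ligand of its own and signals as the partner of the other receptors. In the heart, neuregulin-1 from endothelial and endocardial cells acts on ErbB2 and ErbB4 of cardiomyocytes, and this signal is needed for trabeculation and is a known regulator of cardiomyocyte division around birth.

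Male C57BL/6 mice gave ventricular messenger RNA at 2 ages, day 1 after birth (P1) and day 14 after birth (P14). The labels name no treatment and no engineered allele for either age. Each of 3 libraries per age held oligo(dT)-selected RNA pooled from 3 hearts, so that 9 hearts entered per age and the replicates are pools, not single animals. Labels differ on the tissue: by the protocol both ventricles and the septum were taken and the atria cut away, and by another entry it was left ventricle. Library totals ranged from 5916557 (P1 replicate 3) to 17353933 counts (P1 replicate 1). Levels are given in CPM, the counts of a gene relative to its library's effective size as set by TMM scaling (a trimmed mean of gene-wise ratios between libraries), and "rose" and "fell" are used for an adjusted p under 0.05 at P14 against P1 in edgeR's quasi-likelihood test over all tested genes. By that rule 43.8% of the tested genes changed (21.8% rose and 22.0% fell), and the CPM ranges of the ages did not overlap in 54.8%. All 8 cardiomyocyte markers listed were measured, and their sum was high in every library (at least 55080 CPM). Whole tissue was sampled, so that fewer cells of a type and less RNA per cell cannot be told apart.

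Erbb2 fell between P1 and P14 and Egfr rose, while Erbb3, Erbb4 and Hbegf did not pass the test. Erbb2 went from 36.6 ± 14.3 to 12.5 ± 1.24 CPM (SD, n = 3 libraries per age), a 2.92-fold fall. Egfr went from 4.89 ± 0.925 to 9.43 ± 3.39 CPM, a 1.93-fold rise. The 2 calls among 5 genes, 1 in each direction, stand beside 43.8% called among all tested genes, so the number of calls is near the background. The series title places the comparison beside a study of the cardiac methylome over the same period. No methylation value was used here.

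The starts of the 2 genes that changed are given as the 250 bases before the RefSeq transcription start (build GRCm38.p6), 5′ to 3′ in the direction of the gene, with each CG dinucleotide, the site of DNA methylation in mammals, in capitals. The Erbb2 window is chr11:98412234-98412483 on the plus strand, and the Egfr window is chr11:16751953-16752202 on the plus strand.
Erbb2: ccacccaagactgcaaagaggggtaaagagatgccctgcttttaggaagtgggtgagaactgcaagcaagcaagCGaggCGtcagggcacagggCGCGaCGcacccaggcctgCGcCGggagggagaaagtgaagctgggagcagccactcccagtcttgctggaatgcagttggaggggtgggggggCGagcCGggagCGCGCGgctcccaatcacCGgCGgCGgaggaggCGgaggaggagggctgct
Egfr: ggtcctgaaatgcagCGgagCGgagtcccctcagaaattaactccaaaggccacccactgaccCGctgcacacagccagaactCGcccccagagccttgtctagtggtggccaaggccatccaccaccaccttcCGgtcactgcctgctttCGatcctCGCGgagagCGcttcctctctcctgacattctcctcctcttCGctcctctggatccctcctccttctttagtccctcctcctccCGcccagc
The Erbb2 window held 16 CG dinucleotides and 66.0% G and C. The Egfr window held 11 CG dinucleotides and 60.8% G and C. Over 32851 RefSeq promoter windows of the same length, 92.1% held at least 1 CG, the median was 6, and the median G and C content was 52.4%. The motif GGGCGG, searched on both strands, occurred 1 time in the Egfr window and 0 times in the Erbb2 window, and 32.7% of all windows held it. CCAAT occurred 1 time in the Erbb2 window and 0 times in the Egfr window (33.8% of all windows), and TATAAA in neither (12.4%). These are letters of the reference and say nothing of binding or methylation in these samples.

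Erbb2 (ENSMUSG00000062312) lies on chromosome 11, 98412470 to 98437716, plus strand, in GRCm38 with GENCODE M21 annotation. It encodes the ligandless ErbB2 receptor, the preferred partner of ErbB4 and ErbB3. At P1 its level was 43.8, 20.2 and 45.8 CPM in replicates 1 to 3, from 947, 346 and 272 counts. At P14 it was 11.1, 12.9 and 13.5 CPM, from 158, 97 and 105 counts. Every P1 library lay above every P14 library, and P1 replicate 2 stood apart from the other P1 pools at less than their level. The fitted log2 fold change was −1.55 ± 0.29 (SE; edgeR adjusted p = 7.45e-04), with a 95% interval from −2.17 to −0.93. Only 14.2% of tested genes had a larger absolute change. The fall passed the test under every scaling, filter and test tried and without any 1 library, where log2 fold changes lay between −1.85 and −1.34. Transcript GC content differs within the family, from 57.3% in the longest Erbb2 transcript to 40.6% in that of Erbb4. After each library was corrected for transcript GC content and length, the P1 levels of Erbb2 were 44.4, 29.2 and 49.0 CPM, the P14 levels 10.1, 10.8 and 11.2 CPM, and the log2 fold change −1.93. Markers of cardiomyocytes, the cells in which ErbB2 and ErbB4 are known to act here, summed to 55080 to 58080 CPM at P1 and 65830 to 81280 CPM at P14, with 3 of 8 rising and 0 falling. Most of that sum came from Myl2, Actc1 and Tnnt2, of which only Tnnt2 rose. Endothelial and endocardial markers overlapped between the ages, at 879.9 to 1127 CPM and 1093 to 1205 CPM, with 3 of 12 rising and 2 falling. Epicardial markers were lower at P14 (3 of 5 tested fell and 0 rose, among them Tbx18 and Aldh1a2), with summed levels of 36.9 to 55.6 CPM at P1 and 15.5 to 21.6 CPM at P14. Markers of dividing cells also fell, 8 of 8. Beside these marker counts, 21.8% of all tested genes rose and 22.0% fell. The part of cell make-up in the Erbb2 fall was not tested. An exon of Erbb2 shares 9 bases with Mien1 on the opposite strand, and no source used here states if reads were counted by strand. All of its 36-base windows, the length sequenced, were unique among annotated transcripts.

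Egfr (ENSMUSG00000020122), the EGF receptor, lies on the same chromosome, 16752203 to 16918158, plus strand. It binds EGF, TGF-alpha and HB-EGF. Levels at P1 were 3.84, 5.6 and 5.22 CPM, from 83, 96 and 31 counts. Its P14 levels were 6.26, 9.03 and 13.0 CPM, from 89, 68 and 101 counts. The ages did not overlap, but the highest P1 library and the lowest P14 library lay close to each other. The log2 fold change was 0.95 ± 0.31 (edgeR adjusted p = 0.0229), with a 95% interval from 0.29 to 1.61. This call rested on few counts. It ended without P1 replicate 1 (edgeR adjusted p = 0.075), without P14 replicate 2 (0.0557) and without P14 replicate 3 (0.151), where the log2 fold change was 0.65. It also ended with totals alone as the scaling (log2 fold change 0.47, adjusted p = 0.235). That scaling moved the median of all tested genes from −0.01 to −0.47, and over the median Egfr lay at 0.95 with TMM and at 0.94 with totals alone. The call held with the replicate block (log2 fold change 0.88, edgeR adjusted p = 0.00674) and after correction for GC content and length (1.02, adjusted p = 0.00166). Corrected levels of Egfr were 4.53, 4.29 and 5.29 CPM at P1 and 8.4, 8.27 and 11.6 CPM at P14. No exon of Egfr overlaps another annotated gene, and 99.3% of its 36-base windows were unique.

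Erbb4 (ENSMUSG00000062209; chromosome 1, 68032186 to 69108059, minus strand) encodes the neuregulin receptor of cardiomyocytes. At P1 it was at 6.38, 11.8 and 7.41 CPM and at P14 at 3.59, 11.0 and 9.79 CPM. The ages overlapped, and the replicate 2 library was the highest at each age. The log2 fold change was −0.11 ± 0.39 (edgeR adjusted p = 0.842). Its 95% interval ran from −0.95 to 0.73, so that a change of up to 1.66-fold upward or to 0.518 of the P1 level lay within it. The sign turned without P1 replicate 2 (0.21) and without P14 replicate 1 (0.28). These counts are per gene and do not separate the splice forms of Erbb4.

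Erbb3 (ENSMUSG00000018166; chromosome 10, 128567523 to 128589652, minus strand) encodes a neuregulin receptor with an impaired kinase that is known in Schwann cells and in the mesenchyme of the heart valves. It was at 8.14, 10.7 and 11.1 CPM at P1 and at 9.36, 11.8 and 15.5 CPM at P14. The ages overlapped, and the fitted difference was 0.29 ± 0.26 on the log2 scale (95% interval −0.26 to 0.85; edgeR adjusted p = 0.38). Erbb3 was higher at P14 in each of the 3 pairs of same-numbered libraries, and with the replicate number as a block the edgeR adjusted p was 0.383. With library totals alone the sign turned to −0.17, while over the median of all tested genes Erbb3 lay at 0.30 with either scaling. Of 10 tested Schwann cell and glial markers 4 rose (Sox10, Gfra3, Egfl8 and Pmp22), 1 fell (Fabp7, 3.4-fold) and 5 did not pass, among them Ngfr at a log2 fold change of −0.97. Their summed level was 67.8 to 68.9 CPM at P1 and 96.7 to 126.5 CPM at P14, of which Pmp22 alone held a mean of 49.9 and 77.9 CPM. Sox10, the transcription factor that defines this lineage, rose from 0.172 to 2.75 CPM, Gfra3 had 0 CPM in P1 replicates 2 and 3, and Foxd3 had no row. Beside the counts of glial markers, 21.8% of all tested genes rose and 22.0% fell. The part of these markers' cells in the Erbb3 level was not tested.

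Hbegf (ENSMUSG00000024486; chromosome 18, 36504927 to 36515805, minus strand) encodes HB-EGF, the ligand of EGFR and ErbB4 among these genes. It was at 16.5, 23.4 and 15.8 CPM at P1 and at 22.7, 31.6 and 24.7 CPM at P14. P1 replicate 2 lay above the lowest P14 library, and the other P1 libraries lay below all P14 libraries. Within the 3 pairs of same-numbered libraries P14 was the higher each time, and the edgeR adjusted p with the replicate block was 0.0511. The log2 fold change was 0.49 ± 0.23, with an unadjusted p = 0.0517 and an adjusted p = 0.1 by edgeR, and its 95% interval ran from 0.997-fold to 1.98-fold. The test was passed without P1 replicate 2 (log2 fold change 0.69, edgeR adjusted p = 0.0111), after correction for GC content and length (0.54, adjusted p = 0.0385), and with that correction and the replicate block together (0.56, adjusted p = 0.00701). With totals alone the log2 fold change was 0.01. Over the median of all tested genes Hbegf lay at 0.50 with TMM and at 0.48 with totals alone. Macrophage markers rose over the same interval, 8 of 9 tested, with summed levels of 86.3 to 102.3 CPM at P1 and 322.6 to 376.7 CPM at P14. Markers of other cells rose too: 6 of 7 tested for erythroid cells and platelets, and 5 of 8 for smooth muscle and pericytes, where 2 fell. Over all tested genes 21.8% rose. The part of any of these cells in the Hbegf level was not tested.

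**Figure D1:**
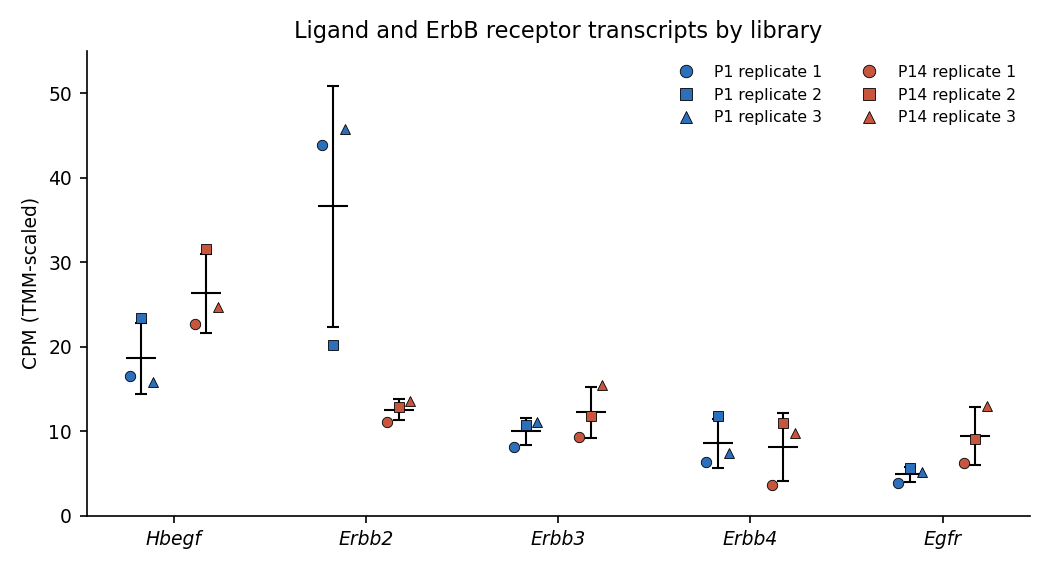
Level of Hbegf and the ErbB receptor genes in each library (vertical axis, TMM-scaled CPM; points are libraries, horizontal bars the mean and whiskers the SD of 3 libraries per age, blue P1 and red P14). All P1 libraries lie above the P14 libraries for Erbb2, with P1 replicate 2 at 20.2 CPM, and all lie below them for Egfr.

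**Figure D2:**
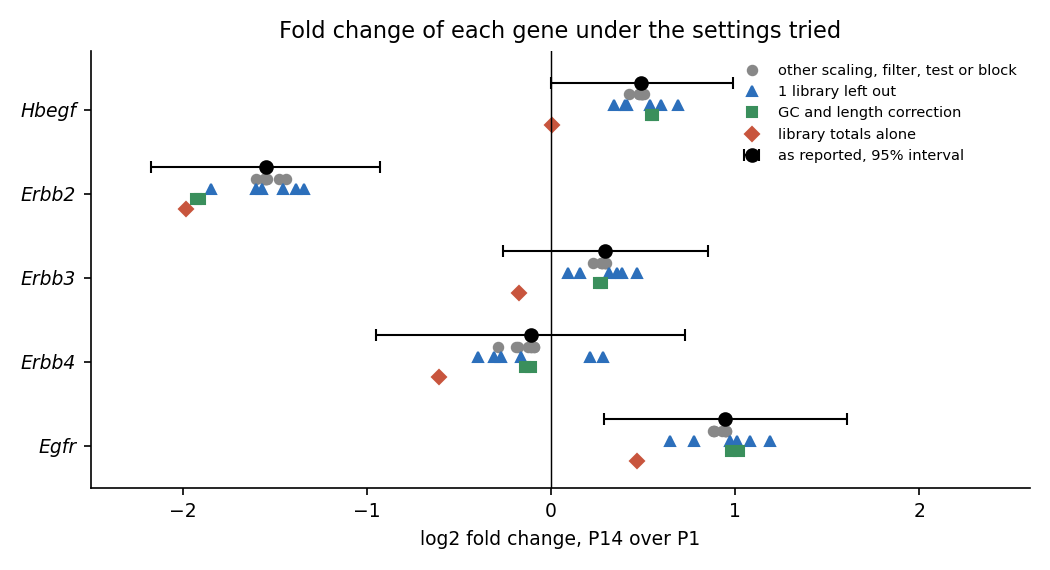
Log2 fold change of P14 over P1 for each gene (horizontal axis) as reported with its 95% interval (black) and under other settings (grey, other scaling, filter, test or replicate block; triangles, 1 library left out; squares, corrected for GC content and length; diamonds, library totals alone). Erbb2 stays between −1.98 and −1.34, and Erbb4 lies on both sides of 0.

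Because the genes differ in length, levels were compared between genes as CPM per kilobase of exonic sequence. At P1 the order was Erbb2 (7.02 ± 2.74), Hbegf (3.85 ± 0.871), Erbb3 (1.66 ± 0.266), Erbb4 (0.691 ± 0.234) and Egfr (0.431 ± 0.0817 CPM per kilobase; SD, n = 3). The ranges of Erbb2 and Hbegf overlapped at P1, and with the longest coding transcript as the length Hbegf stood first (7.83 against 7.3 for Erbb2). At P14 the order was Hbegf (5.45 ± 0.968), Erbb2 (2.4 ± 0.239), Erbb3 (2.03 ± 0.51), Egfr (0.833 ± 0.299) and Erbb4 (0.658 ± 0.322 CPM per kilobase). The neighbours Erbb2 and Erbb3, and Egfr and Erbb4, had overlapping ranges at P14. The summed level of the 4 receptors was 10.6, 7.1 and 11.7 CPM per kilobase at P1 and 4.53, 6.13 and 7.11 at P14, so the lowest P1 library and the highest P14 library were nearly equal.

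Within each library, the ratio of 2 receptor transcripts does not depend on how libraries are scaled. Egfr stood to Erbb2, per kilobase, at 0.0403, 0.128 and 0.0524 in the P1 libraries and at 0.259, 0.322 and 0.442 in the P14 libraries. The ages did not overlap, and the mean log2 ratio differed by 2.37, a 5.16-fold change (exact two-sided permutation test, p = 0.1, the smallest that 3 against 3 libraries allow; 0.167 adjusted over 5 ratios). Erbb3 stood to Erbb2 at 0.161, 0.458 and 0.21 at P1 and at 0.729, 0.795 and 0.99 at P14. These also did not overlap, with a 3.33-fold change of the ratio (exact permutation p = 0.1, adjusted 0.167). The ratio of the cardiomyocyte neuregulin receptors, Erbb4 to Erbb2, was 0.0615, 0.247 and 0.0682 at P1 and 0.136, 0.361 and 0.305 at P14. In P1 replicate 2 the ratio lay within the P14 range, so the ages overlapped, and the 2.44-fold difference had an exact permutation p = 0.2 (adjusted 0.25). The ratio was higher at P14 in all 3 pairs of same-numbered libraries (exact sign-flip test over pairs, p = 0.25, the smallest it can give). Its log2 difference was 1.28, and 1.93 without P1 replicate 2. After correction for GC content and length the Erbb4 to Erbb2 difference was 1.76 on the log2 scale (exact permutation p = 0.1). The ratio of Egfr to Erbb4 was below 1 in all P1 libraries (0.516 to 0.769) and 1.9, 0.894 and 1.45 at P14 (exact permutation p = 0.1, adjusted 0.167). Erbb4 to Erbb3 overlapped between the ages, with a log2 difference of −0.45 (exact permutation p = 0.4), and was lower at P14 in all 3 pairs (exact sign-flip p = 0.25). That difference was −0.12 without P14 replicate 1, −0.25 without P1 replicate 2 and −0.76 without P14 replicate 2. None of the 5 ratios can pass the 0.05 threshold in this design.

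Expressed as shares of the 4 receptor transcripts per kilobase, Erbb2 made up 79.2%, 54.6% and 75.1% at P1 and 47.1%, 40.4% and 36.5% at P14. Erbb3 made up 12.7%, 25.0% and 15.8% at P1 and 34.3%, 32.1% and 36.2% at P14, and Egfr went from a mean of 4.7 ± 2.0% to 13.8 ± 2.09% (SD, n = 3). The shares of these 3 receptors did not overlap between the ages (exact permutation p = 0.1 each, 0.133 adjusted over 4 shares). The 4 shares of a library add up to its whole receptor sum, so they are not separate results. A lower Erbb2 level by itself makes the other shares larger. The CPM of Erbb3 overlapped between the ages and did not pass the test (log2 fold change 0.29, edgeR adjusted p = 0.38). The Erbb4 share was 7.83 ± 4.91% at P1 and 10.7 ± 4.1% at P14 and overlapped (exact permutation p = 0.5), although it was higher at P14 in each of the 3 pairs. Shares were computed after the ratios had been seen and rest on the same counts.

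**Figure D3:**
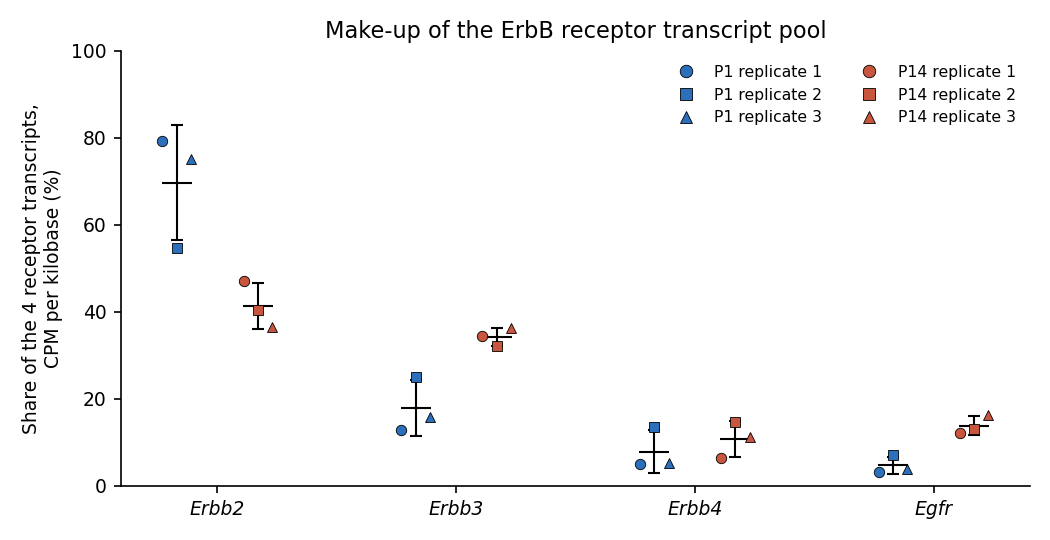
Share of each receptor in the sum of the 4 receptor transcripts, in percent of CPM per kilobase (vertical axis; points are libraries, bars the mean and whiskers the SD of 3 libraries per age, blue P1 and red P14). Erbb2 holds between 54.6% and 79.2% at P1 and between 36.5% and 47.1% at P14.

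Other ligands of the EGF family were low where they were measured, with means of at most 5.01 CPM at either age. Of 9 listed, 3 had a row: Tgfa, Egf and Nrg4. The levels of those without a row are not known here. Tgfa, whose product TGF-alpha binds EGFR, was at 3.47, 4.08 and 4.38 CPM at P1 and at 0.422, 0.531 and 0.129 CPM at P14. It fell 10.4-fold (log2 fold change −3.38 ± 0.45, edgeR adjusted p = 4.42e-05), so that this EGFR ligand fell while Egfr and Egf rose. Egf was at 1.57, 1.69 and 0.842 CPM at P1 and at 2.75, 2.92 and 2.83 CPM at P14, a 1.94-fold rise (edgeR adjusted p = 0.0428). The Egf call was lost with DESeq2 (adjusted p = 0.0734), with upper quartile scaling (edgeR, 0.0594), with totals alone (0.362) and without any 1 library other than P1 replicate 2 (0.0747 to 0.117), and 2 annotated genes overlap its exons on the opposite strand. Nrg4, an ErbB4 ligand, was at 4.53, 6.3 and 4.21 CPM at P1 and at 3.8, 3.98 and 3.99 CPM at P14. It did not pass (log2 fold change −0.37, edgeR adjusted p = 0.315). With totals alone it passed at −0.85 (edgeR adjusted p = 0.0372), and after GC and length correction it was at −0.06 (edgeR adjusted p = 0.844). Fbxo22 and Gm15625 overlap exons of Nrg4 on the opposite strand.

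Proteases that release EGF-family ligands from the membrane are known as sheddases, and iRhoms guide the sheddase ADAM17. Of 14 such genes and parts of the gamma-secretase complex, 4 fell, 2 rose and 8 did not pass, with a median log2 fold change of 0.02 beside −0.01 over all tested genes. The called share is near the 43.8% over all tested genes. Adam19, a protease reported to process neuregulin, fell from 74.8 ± 4.04 to 34.3 ± 3.33 CPM (edgeR adjusted p = 2.57e-04). Adam9 fell from 54.4 to 17.7 CPM. Adam17 itself, at 23.9 and 27.2 CPM, did not pass (log2 fold change 0.18). Psen2, a catalytic subunit of gamma-secretase, rose from 11.5 to 22.9 CPM, and its call was lost without P14 replicate 2 (edgeR adjusted p = 0.078) and with totals alone (0.0984). Its log2 fold change of 1.01 was 0.66 without P1 replicate 2. No sheddase gene rose without P14 replicate 2, and 1 rose when P1 replicate 3, P14 replicate 1 or P14 replicate 3 was removed. After GC and length correction 4 rose.

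Among 16 tested partners of the ligands and receptors, 5 fell, 2 rose and 9 did not pass (median log2 fold change −0.32). Here too the called share is near the 43.8% over all tested genes. Erbin, listed as Erbb2ip, binds the tail of ErbB2 and fell from 40.9 ± 9.31 to 21.1 ± 9.35 CPM (log2 fold change −0.97, edgeR adjusted p = 0.029). That call ended without P1 replicate 2 (0.142), P1 replicate 3 (0.0671) or P14 replicate 1 (0.0583). Itgb1, the beta 1 integrin, fell from 442 to 252 CPM and missed the threshold without P14 replicate 2 (edgeR adjusted p = 0.0517). The Itgb1 log2 fold change of −0.81 was −0.50 after GC and length correction. The proteoglycan Gpc1 rose from 115 to 203 CPM with an edgeR adjusted p of 0.0468, but missed the threshold under every other scaling (0.0509 to 0.226), with the stricter filter (0.0539), after GC and length correction (0.0955), and when P1 replicate 3 or any P14 library was removed (0.0687 to 0.121). It passed with the replicate block (0.00121, and 0.0391 with GC and length correction too), with DESeq2 (0.0222), voom (0.0312) and edgeR's exact test (0.0315), and its log2 fold change of 0.82 was 0.39 after that correction and 0.49 without P1 replicate 2. Without P14 replicate 2 this list held 0 rises and 1 fall. Removal of P1 replicate 1 left 3 falls, and removal of P1 replicate 3, P14 replicate 1 or P14 replicate 3 left 1 rise and 3 falls.

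Downstream of the receptors, 8 of 21 adaptor and Ras-ERK genes fell, 2 rose and 11 did not pass (median log2 fold change −0.31). Over all tested genes 22.0% fell, 21.8% rose and 43.8% were called. Shc4, an adaptor of the Shc family, fell from 10.9 ± 0.702 to 3.42 ± 1.33 CPM, and the kinase gene Rps6ka2, which encodes a ribosomal S6 kinase activated by ERK, fell from 24.5 to 9.33 CPM. Map2k1 and Map2k2, which encode the kinases that activate ERK, moved in opposite directions: Map2k1 fell from 47.3 to 23.6 CPM and Map2k2 rose from 45.8 ± 22.5 to 99.1 ± 7.36 CPM. The Map2k2 call ended without any P14 library (edgeR adjusted p from 0.0509 to 0.066). Its log2 fold change of 1.12 was 0.65 after GC and length correction and 0.76 without P1 replicate 2. The adaptor and ERK list held 0 rises without P14 replicate 2 or P14 replicate 3, and 1 without P1 replicate 3 or P14 replicate 1. After GC and length correction it held 5.

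In the PI3K-AKT, Src and STAT branch 6 of 22 genes fell, 5 rose and 11 did not pass (median log2 fold change −0.03). Beside these counts stand 22.0% falling and 21.8% rising over all tested genes. Akt1, a kinase activated by ErbB signalling, was at 339.5, 186.4 and 354.3 CPM at P1 and at 128.3, 78.5 and 109.8 CPM at P14 (log2 fold change −1.47 ± 0.27, edgeR adjusted p = 5.61e-04). As for Erbb2, P1 replicate 2 was the lowest P1 library and still lay above the P14 range. Akt2, at 49.8 and 59.9 CPM, did not pass (log2 fold change 0.27). Stat5a and Stat5b, transcription factors that act downstream of ErbB4, rose from 6.8 to 23.0 CPM and from 22.5 to 46.6 CPM (edgeR adjusted p = 4.24e-05 and 5.39e-04). With totals alone the Stat5b log2 fold change was 0.59 and its call ended (adjusted p = 0.0529). Removal of P1 replicate 3 or P14 replicate 3 left 3 falls in this branch, and removal of P14 replicate 1 or 2 left 2. Removal of P1 replicate 3 or P14 replicate 3 also left 3 rises.

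Of 30 tested genes that dampen ErbB signalling, 5 rose, 5 fell and 20 did not pass (median log2 fold change 0.07). That is a smaller called share than the 43.8% over all tested genes. Dusp7, an ERK phosphatase, rose from 5.25 ± 1.86 to 20.9 ± 4.15 CPM, and Dusp5, a nuclear ERK phosphatase, rose from 5.11 to 11.9 CPM. Errfi1, which encodes an inhibitor that binds the EGFR kinase and is known as Mig6, was at 12.5, 14.2 and 12.5 CPM at P1 and at 35.2, 26.7 and 28.1 CPM at P14 (log2 fold change 1.2 ± 0.21, edgeR adjusted p = 4.76e-04). It rose in the same comparison as Egfr. Dusp4 fell from 2.74 to 0.53 CPM. Nedd4, the gene of this list with the highest level, fell from 672 to 329 CPM, and Spry2, Dusp6 and Ptpn12 also fell. The ubiquitin ligase gene Rnf41, which targets ErbB3, and Lrig1, which promotes receptor turnover, did not pass (log2 fold changes 0.18 and 0.22). Removal of P1 replicate 3, P14 replicate 1 or P14 replicate 2 left 3 falls. With totals alone the Dusp5 call ended (adjusted p = 0.058).

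Of 13 tested growth-factor response genes 5 rose, 3 fell and 5 did not pass (median log2 fold change 0.42). Myc was at 18.8, 11.9 and 11.4 CPM at P1 and at 1.9, 1.46 and 1.93 CPM at P14, a 7.93-fold fall (edgeR adjusted p = 4.72e-06). Phlda1 rose from 5.34 to 17.6 CPM and the immediate early gene Ier2 from 6.85 to 15.1 CPM. The Ier2 log2 fold change of 1.17 was 0.58 after GC and length correction. Over all 7 lists 119 genes were tested, of which 22 rose, 32 fell and 65 did not pass, a called share of 45.4% beside 43.8% over all tested genes. Without P14 replicate 2 the rises numbered 13 and the falls 20, and without P14 replicate 3 the rises numbered 13. With totals alone 8 rose and 52 fell, beside 1620 rises and 5592 falls over all tested genes in that setting. Markers of dividing cells fell in the same comparison, 8 of 8, from summed levels of 370.9 to 422 CPM at P1 to 28.8 to 44.8 CPM at P14. Their part in these changes was not tested.

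**Figure D4:**
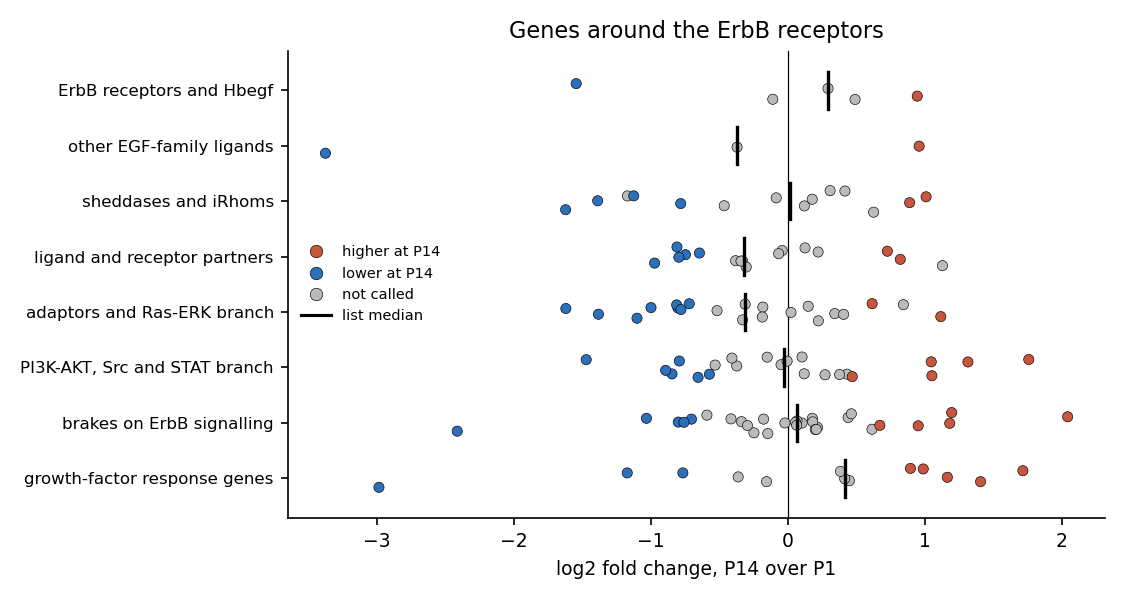
Log2 fold change of P14 over P1 (horizontal axis) for each tested gene of the receptor set and of 7 lists around it (red, higher at P14; blue, lower; grey, not called; black bars, list medians; points are spread vertically for view). Called genes lie on both sides of 0 in every row, with Tgfa at −3.38 and Myc at −2.99 farthest to the left.

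Genes with the closest pattern were sought as the 2 of 9187 genes (at least 10 CPM at an age) with the smallest root mean square difference in centred log2 CPM over the 6 libraries. For Erbb2 these were D830015G02RIK (0.17) and Traf4 (0.193), against a median of 0.891 over the genes searched. Traf4, an adaptor protein gene, was at 40.7, 15.4 and 34.5 CPM at P1 and at 12.5, 10.5 and 11.8 CPM at P14, with P1 replicate 2 low as for Erbb2. For Egfr they were Frem2, a gene of an extracellular matrix protein (0.087), and Arhgap26 (0.108). Both rose, with log2 fold changes of 0.8 and 0.9. The Frem2 call ended without P1 replicate 1 (edgeR adjusted p = 0.0754), P14 replicate 2 (0.0649) or P14 replicate 3 (0.15), and that of Arhgap26 ended without P14 replicate 3 (0.0582). For Hbegf they were Son (0.061) and Xpo6 (0.063), for Erbb3 Aff1 (0.057) and Zfp236 (0.086), and for Erbb4 Ranbp2 (0.097) and Jmjd1c (0.108), none of which passed the test.

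Autonomic neuron genes, of which 4 of 8 listed had a row, are given because Schwann cells, in which Erbb3 is known, accompany such fibres. Dbh, the noradrenaline-forming enzyme, rose from 3.51 to 33.4 CPM and Phox2a from 17.8 to 48.8 CPM. The Phox2a log2 fold change of 1.46 was 0.66 after GC and length correction. Stmn2, at 6.78 and 7.81 CPM, did not pass. Uchl1 fell from 34.5 to 19.9 CPM (edgeR adjusted p = 0.0492). It missed the threshold with DESeq2 size factors (0.0506), with no filter (0.0505), with voom (0.0961) and when either of P1 replicates 1 and 3 or P14 replicates 2 and 3 was removed (0.124 to 0.189).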

How the data were processed

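Read counts per gene, in whole numbers and not normalized, are what the authors deposited, in a single table with 1 column per library. Per the submitters' processing notes, bedtools, edgeR 3.2.4 and the mouse build GRCm38 (mm10) were used, in roles that are not stated. Which aligner, counter, annotation and strand setting were used is not given in the sources here. Sequencing ran for 36 cycles. The smallest row total was 60, so genes below it were not analysed here.

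Counts were fitted in R 4.3.3. The filter filterByExpr (minimum count 10) left 14301 genes and removed 194. P14 was compared with P1 by the robust quasi-likelihood F-test of edgeR 4.0.16, two-sided and without a covariate, after TMM scaling, and p-values were adjusted by Benjamini and Hochberg's method over all 14301. The SE of a log2 fold change is its size over the root of F. A common dispersion of 23.0% (as a coefficient of variation) was estimated. DESeq2 1.42.0 and limma 3.58.1 served as alternatives. Positions and lengths came from GENCODE M21 (98.8% of identifiers matched), and promoter letters from RefSeq.

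Named genes are the members, up to 3 called genes per list with the largest change among those of at least 10 CPM and 1 against the main direction, all measured EGF-family ligands and neuron genes, and the 2 nearest patterns per member. Adam17, Map2k1, Akt2, Rnf41, Lrig1, Nedd4, Spry2, Dusp6, Ptpn12, Sox10 and Gfra3 were named outside that rule after their values were seen. Members and lists were chosen with earlier results of these data known. Replicate numbers are shared between the ages in the labels. Deviations from group means correlated at 0.295, 0.112 and 0.102 between same-numbered libraries and at −0.214 to 0.09 between differently numbered ones. The highest of the latter lies close to 0.102, so pairing by number is not settled. The main fit took the libraries as unpaired, and the replicate block and sign-flip tests are given beside it. The closest pair of replicates differed with a chi-square of 12.0 per degree of freedom, so no library was counted as a duplicate.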

Additional observations from a re-analysis of the deposited data

How the results depend on the processing

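Settings tried were DESeq2 size factors, totals alone, upper quartile scaling, no filter, a filter of over 5 CPM in 3 libraries, DESeq2, voom, edgeR's exact test, the replicate block, stricter thresholds and each library left out. The correction for GC content and length, alone and with the block, and the stricter thresholds for single members were added after the data were seen. Causes of the changes below were not tested except where fewer libraries or a stricter threshold make them. Over all genes, 1620 rose and 5592 fell with totals alone, and the share of rises among calls went from 49.7% to 22.5%. The median log2 fold change was −0.472 there and −0.008 with TMM. TMM factors were 1.246, 1.28 and 1.004 in P1 replicates 1 to 3 and 0.904, 0.827 and 0.835 in those of P14. Every P1 factor lay above every P14 factor, so the choice of scaling bears on the comparison of the ages. Which scaling suits these hearts was not tested. At an adjusted p under 0.01, 2025 genes fell, and with a fold change above 1.5 as the tested bound 1763 rose and 1640 fell. Genes of the 7 lists that rose numbered 8 with totals alone, 11 at 0.01 and 9 past 1.5-fold, and those that fell numbered 52, 18 and 12. With 1 library left out, 13 to 26 rose and 20 to 35 fell. The replicate block called 3561 rises and 3435 falls, gave Erbb2 a log2 fold change of −1.48 and Hbegf an adjusted p of 0.0511 (edgeR), and changed no call of a receptor or of Hbegf; among the named genes Son gained a call (adjusted p = 0.0483) and the sign of Ranbp2 turned (−0.008).

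Erbb2 was called in every setting, including 0.01 and 1.5-fold. Egfr lost its call with totals alone (0.47), and at 0.01 and past 1.5-fold (log2 fold change 0.95, edgeR adjusted p = 0.0229 and 0.143), with 0.65 to 1.19 when 1 library was left out. Hbegf gained a call after GC and length correction (0.54, with the block 0.56), with 0.34 to 0.69 when 1 library was left out. Erbb3 turned sign with totals alone (−0.17), and Erbb4 ranged from −0.40 to 0.28 with 1 library left out. Among other named genes totals alone turned the sign of Stmn2 (−0.30), Xpo6 (−0.022), Aff1 (−0.12), Zfp236 (−0.13) and Ranbp2 (−0.44). Ranbp2 (0.06 as reported) was also negative with upper quartile scaling (−0.006) and voom (−0.071), and ranged from −0.24 to 0.42 with 1 library left out, as Jmjd1c ranged from −0.42 to 0.17. All 5 ratios, and the 4 receptor shares (libraries left out, coding length), kept their direction in every setting, and none could reach 0.05. With 1 library left out the log2 differences were 0.92 to 1.93 for Erbb4 to Erbb2, 1.42 to 2.18 for Erbb3 to Erbb2, 2.03 to 2.86 for Egfr to Erbb2, −0.76 to −0.12 for Erbb4 to Erbb3 and 0.83 to 1.38 for Egfr to Erbb4. Depth limits the low genes: Egfr rested on 31 to 101 counts per library and Tgfa on few at P14.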
